A study of Mus musculus with 4 samples.

Results

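The NR4A orphan nuclear receptors Nr4a1, Nr4a2 and Nr4a3 were examined in cultured mouse synovial cells. Their members were all probe sets of the deposited value table whose annotated gene symbol is exactly 1 of these 3 names. This gave 5 of 22690 probe sets, and 3 of 12393 named genes. Nr4a1 has 1 probe set (1416505_at), Nr4a2 has 2 (1450749_a_at and 1450750_a_at) and Nr4a3 has 2 (1421079_at and 1421080_at). The probe sets of a gene share their target and are not replicates of a treatment.

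RNA was measured on 4 one-colour Affymetrix arrays, 1 array for each of 4 dishes. The sample titles name the cells synovial fibroblasts, but 11 of 12 macrophage markers were also above the floor on every array, as given below. The cells were grown out of the knees of male DBA/1J mice, aged 8 to 12 weeks and without arthritis. They were passaged 3 to 4 times and kept in medium with 1% serum. One dish received IL-1β at 5 ng/ml with indomethacin at 1 µM and iloprost at 1 µM, one IL-1β with indomethacin, one IL-1β alone and one vehicle, each for 6 h. Indomethacin blocks the cyclooxygenases, which make prostanoids, and iloprost acts as a long-lived mimic of prostacyclin. The set of dishes thus asks what prostanoids add to IL-1β activation. Indomethacin was given only with IL-1β, and iloprost only with both, so the action of either drug without IL-1β was not measured. With 1 array per group there is no spread between dishes, no test and no p-value, and every difference below describes these 4 dishes. Only 6 h was sampled, so levels at earlier or later times were not measured for any gene.

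NR4A receptors are transcription factors of the nuclear receptor family whose ligand pocket is closed, so that their activity is set mainly by how much of them a cell makes. They are immediate-early genes: cAMP, acting through protein kinase A and CREB, calcium, growth factors and NF-κB switch them on without new protein synthesis. They bind DNA as monomers at the NBRE element, as pairs, and, for Nr4a1 and Nr4a2, with retinoid X receptors. In human rheumatoid synovium NR4A2 is known to be raised, and prostaglandin E2 and cytokines induce it in human synoviocytes. The prostacyclin receptor and the prostaglandin receptors EP2 and EP4 couple to Gs and raise cAMP.

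The promoters of the 3 genes are shown because cAMP is the signal of the added drug and because the genes are regarded as a family with shared inducers. RefSeq's promoter table (GRCm38.p6) held all 3. Each line gives the 250 bases before the annotated start site, 5′ to 3′ on the gene's strand. These are chr15:101266596-101266845 on the plus strand for Nr4a1, chr2:57124004-57124253 on the minus strand for Nr4a2 and chr4:48045055-48045304 on the plus strand for Nr4a3. Capitals mark each match to TGACG, the partial cAMP response element, on either strand, where it reads CGTCA on the printed one.
Nr4a1: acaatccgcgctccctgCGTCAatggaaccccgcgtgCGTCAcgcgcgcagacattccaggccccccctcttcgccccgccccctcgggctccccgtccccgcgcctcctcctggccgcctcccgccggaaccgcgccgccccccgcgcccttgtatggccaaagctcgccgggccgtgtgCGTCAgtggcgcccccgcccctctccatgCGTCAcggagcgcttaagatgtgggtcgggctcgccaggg
Nr4a2: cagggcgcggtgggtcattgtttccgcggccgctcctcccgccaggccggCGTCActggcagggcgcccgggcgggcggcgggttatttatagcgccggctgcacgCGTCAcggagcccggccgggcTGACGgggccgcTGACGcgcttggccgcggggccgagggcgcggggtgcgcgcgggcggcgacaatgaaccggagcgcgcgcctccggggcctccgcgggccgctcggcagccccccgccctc
Nr4a3: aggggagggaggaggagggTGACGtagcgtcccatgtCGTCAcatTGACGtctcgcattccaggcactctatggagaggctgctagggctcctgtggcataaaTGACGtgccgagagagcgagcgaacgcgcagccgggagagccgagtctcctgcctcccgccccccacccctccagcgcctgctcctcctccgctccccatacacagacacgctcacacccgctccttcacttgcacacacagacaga

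Each of the 3 promoter windows held 4 matches to TGACG. The full palindromic element TGACGTCA, which contains TGACG on both strands, had 0 matches in all 3, and so had the NBRE element AAAGGTCA. A TATA box, TATAAA on either strand, had 1 match in the Nr4a2 window and 0 in the others. Among all 32851 promoter windows of the table, 17.8% held TGACG at least once, 1.55% held TGACGTCA, 1.34% held AAAGGTCA and 12.4% held TATAAA. Of all windows 45, or 0.137%, held at least 4 matches to TGACG, a limit taken after the members' counts were seen. The windows are rich in G and C (74.4% for Nr4a1, 80% for Nr4a2 and 63.6% for Nr4a3), and of 9178 windows with at least 60% G and C, 0.37% held at least 4. Of 40 other nuclear receptor genes with a window, 10 held TGACG at least once and the highest count was 3. A match is a description of these letters and not a shown binding site.

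**Figure D1:**
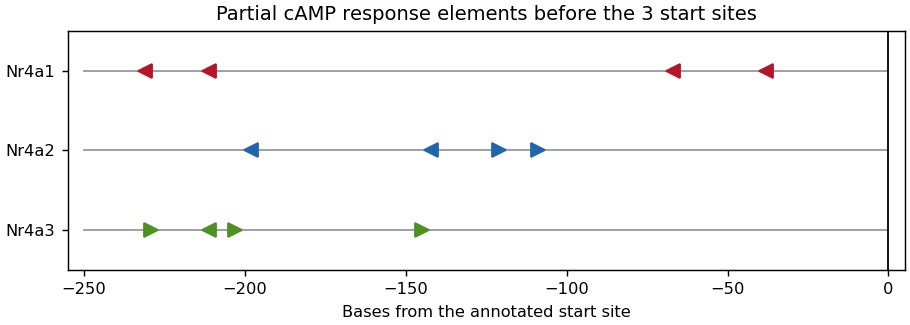
Position of each match to TGACG in the 250 bases before the annotated start sites of Nr4a1, Nr4a2 and Nr4a3 (x axis, bases from the start site). Triangles pointing right are matches on the gene's own strand and triangles pointing left on the opposite strand, and each gene has 4.

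Signals below 37.6, the 50th percentile over the whole table, were treated as not measured and set to this floor before log2 was taken. The arrays differed in brightness as a whole, so a log2 ratio is given relative to the median gene, the median log2 signal of 6227 genes above the floor on all arrays. That gene was brighter by 0.23 on the log2 scale with IL-1β than with vehicle, and lower by a log2 of -0.15 with indomethacin than with IL-1β alone. Log2 ratios of probe sets of 1 gene differed with an SD per probe set of 0.20 to 0.22, a noise within arrays that leaves out differences between dishes. For dim probe sets, under a signal of 113.2 on the brighter array, this SD was 0.25 to 0.26. All 12 fibroblast markers were above the floor on every array, but so were 11 of 12 macrophage markers. The summed fibroblast marker signal was 27230 with iloprost, 26155 with indomethacin, 28296 with IL-1β and 25985 with vehicle, and the summed macrophage marker signal was 23453, 23480, 28002 and 23908 in the same order of dishes. These sums are not scaled for brightness, and both were highest on the IL-1β array, the brightest of the 4. Relative to the median gene, the median log2 ratio of IL-1β over vehicle was -0.07 for the macrophage list and -0.11 for the fibroblast list, with 0 markers of either past 2-fold. For iloprost over IL-1β and indomethacin it was -0.11 and 0.03. There 1 of 11 macrophage markers with a ratio was at least 2-fold lower, Fcgr1 at -1.46, and 0 were higher. Of all genes 3.19% were lower and 1.97% higher. Inside 2-fold, Adgre1 was at -0.77, Aif1 at -0.74 and Cd14 at 0.62. Of the 12 fibroblast markers 0 were past 2-fold. For indomethacin over IL-1β the macrophage and fibroblast medians were -0.05 and 0.02. For all 3 agents they were -0.26 and 0.10 over IL-1β, and -0.28 and -0.09 over vehicle. Fcgr1 was at least 2-fold lower in both, at -1.27 and -1.45, and Adgre1 over vehicle, at -1.05. Of all genes 2.37% were lower over IL-1β, and 234 of 6985 over vehicle. No fibroblast marker was past 2-fold in these comparisons. Of 6 smooth muscle and pericyte markers 2 or 3 were above the floor on each array, and no endothelial, lymphocyte, mast cell or neuron marker was. The arrays do not show which cells carry a transcript, and fewer cells of a type cannot be told apart from less RNA per cell.

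Nr4a1, also called Nur77, was high with IL-1β, low when indomethacin was added and high again with iloprost. Its signal was 548.6 with IL-1β, indomethacin and iloprost, 75.8 with IL-1β and indomethacin, 897.3 with IL-1β and 34.1 with vehicle. The dish with IL-1β alone was the highest and the vehicle dish, just under the floor, the lowest. On the IL-1β array 94.3% of all probe sets were dimmer than Nr4a1, and on the vehicle array 49.4% were.

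IL-1β against vehicle gave Nr4a1 a log2 ratio of at least 4.35, which is at least 20.4-fold, a lower bound because the vehicle signal lay under the floor. With indomethacin added to IL-1β the log2 ratio was -3.42, or 10.7-fold lower than with IL-1β alone, which left 9.36% of the IL-1β level. Against vehicle the dish with IL-1β and indomethacin still stood higher by at least 0.93 on the log2 scale, close to the 2-fold line. This last bound was 1.01 on the scale as deposited, so it falls on either side of 2-fold with the scaling.

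Iloprost, set against IL-1β and indomethacin, gave Nr4a1 a log2 ratio of 2.85, or 7.20-fold. The dish with all 3 agents reached 67.3% of the level with IL-1β alone, a log2 ratio of -0.57, which is larger than the noise SD of 0.21 and smaller than 2-fold. Against vehicle the same dish was higher by a log2 of at least 3.78. The order of the 4 dishes was thus IL-1β, then all 3 agents, then IL-1β with indomethacin, then vehicle. Neighbours in this order differed by more than the within-array noise, while the spread between dishes was not measured.

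**Figure D2:**
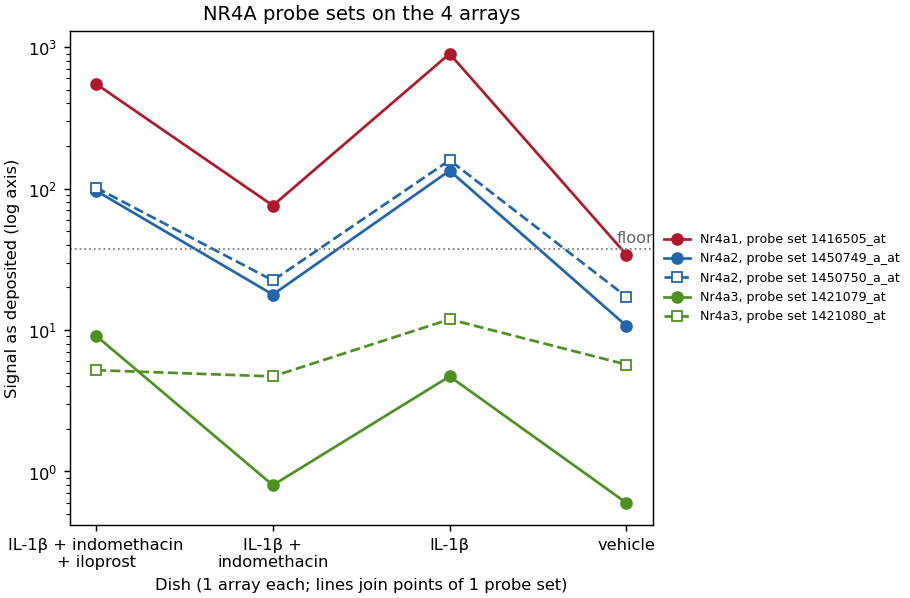
Signals as deposited (log y axis) of the 5 NR4A probe sets in the 4 dishes (x axis), 1 point per array. Lines join the points of a probe set, filled circles mark a gene's first probe set, open squares its second, and the dotted line is the floor of 37.6. Nr4a1 and both Nr4a2 probe sets are high with IL-1β and with all 3 agents, and both Nr4a3 probe sets stay under the floor.

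Nr4a2, also called Nurr1, is the member best known from dopamine neurons and inflamed joints. Probe set 1450750_a_at, which represented the gene, had a signal of 101.4 with IL-1β, indomethacin and iloprost, 22.4 with IL-1β and indomethacin, 158.5 with IL-1β and 17.2 with vehicle. Probe set 1450749_a_at had 96.4, 17.8, 133.7 and 10.7 in the same dishes. Both were above the floor in the same 2 dishes, IL-1β alone and all 3 agents, and below it in the other 2.

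For Nr4a2 the log2 ratio of IL-1β over vehicle was at least 1.85 with 1450750_a_at and at least 1.60 with 1450749_a_at. Indomethacin over IL-1β alone gave at most -1.93 and at most -1.68. Iloprost over IL-1β and indomethacin gave at least 1.42 and at least 1.35. Both arrays measured Nr4a2 only in the comparison of all 3 agents with IL-1β alone, with log2 ratios of -0.50 and -0.33, or 70.5% and 79.4% of the IL-1β level. The 2 probe sets thus differed by 0.17 in this ratio, against a noise SD of 0.18 for probe sets of this brightness. Against vehicle the dish with all 3 agents was higher by at least 1.34 and 1.27, and no ratio of IL-1β with indomethacin over vehicle can be given. The bounds of Nr4a2 depend on the floor: at the 65th percentile, a signal of 87, those from 1450750_a_at were 0.61 for IL-1β, -0.72 for indomethacin and 0.25 for iloprost, all inside 2-fold.

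Nr4a3, also called Nor1, was not measured above the floor on any array. Probe set 1421080_at had signals of 5.2 with all 3 agents, 4.7 with IL-1β and indomethacin, 11.9 with IL-1β and 5.7 with vehicle, and probe set 1421079_at had 9.1, 0.8, 4.7 and 0.6. All 8 values also lay under a floor at the 35th percentile, a signal of 13.7. Values this low have no order, so no ratio is given. A low signal can come from little RNA or from a probe set that detects its transcript poorly, which cannot be told apart here.

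Set among all genes with a ratio, 2 of the 3 members exceeded vehicle by 2-fold or more in the IL-1β dish, as did 1.72% of 6965 genes. None of the 6965 had a higher ratio or bound than Nr4a1, and 38 were above Nr4a2. With indomethacin 2 of 3 members were at least 2-fold lower than with IL-1β alone, against 0.663% of 6937 genes. Nr4a1 had the lowest ratio of these 6937, and 9 genes were below Nr4a2. With iloprost 2 of 3 were at least 2-fold higher than with IL-1β and indomethacin, against 1.97% of 6990 genes, with 7 genes above Nr4a1 and 56 above Nr4a2. Under the alternatives for scaling, floor and probe set, between 0 and 1 genes were above Nr4a1 with IL-1β, 0 were below it with indomethacin, and 4 to 14 were above it with iloprost. The place of Nr4a2 was less settled, with 15 to 179 genes above it with IL-1β, 7 to 49 below it with indomethacin and 30 to 1239 above it with iloprost. Between 5137 and 12393 genes had a ratio in these alternatives, so the counts of both members do not share a total. The 1239 were of 5166 genes, with the floor at the 65th percentile.

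No member was past 2-fold between all 3 agents and IL-1β alone, where 2.37% of 7050 genes were at least 2-fold lower and 0.965% higher. Against vehicle, 1.29% of 6806 genes passed 2-fold upward when indomethacin accompanied IL-1β. Nr4a1 was the only member with a ratio there. Its value of 0.93 is a lower bound, so whether Nr4a1 passed 2-fold cannot be said. For all 3 agents over vehicle, 2.72% of 6985 genes and 2 of 3 members passed 2-fold upward. The IL-1β and indomethacin comparisons share the IL-1β array, and the indomethacin and iloprost comparisons share the indomethacin array, so a noisy value there enters both. IL-1β over vehicle and iloprost over indomethacin share none. The 120 genes at least 2-fold higher in the first and the 138 in the second had 34 in common, which is 28.3% and 24.6% of the lists, and Nr4a1 and Nr4a2 were among them. Without the shift to the median gene, 195 genes exceeded vehicle 2-fold in the IL-1β dish and 11 were lower, against 120 and 39 with it. The same counts were 9 higher and 60 lower for indomethacin over IL-1β, against 17 and 46, and 44 and 220 for all 3 agents over IL-1β, against 68 and 167.

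**Figure D3:**
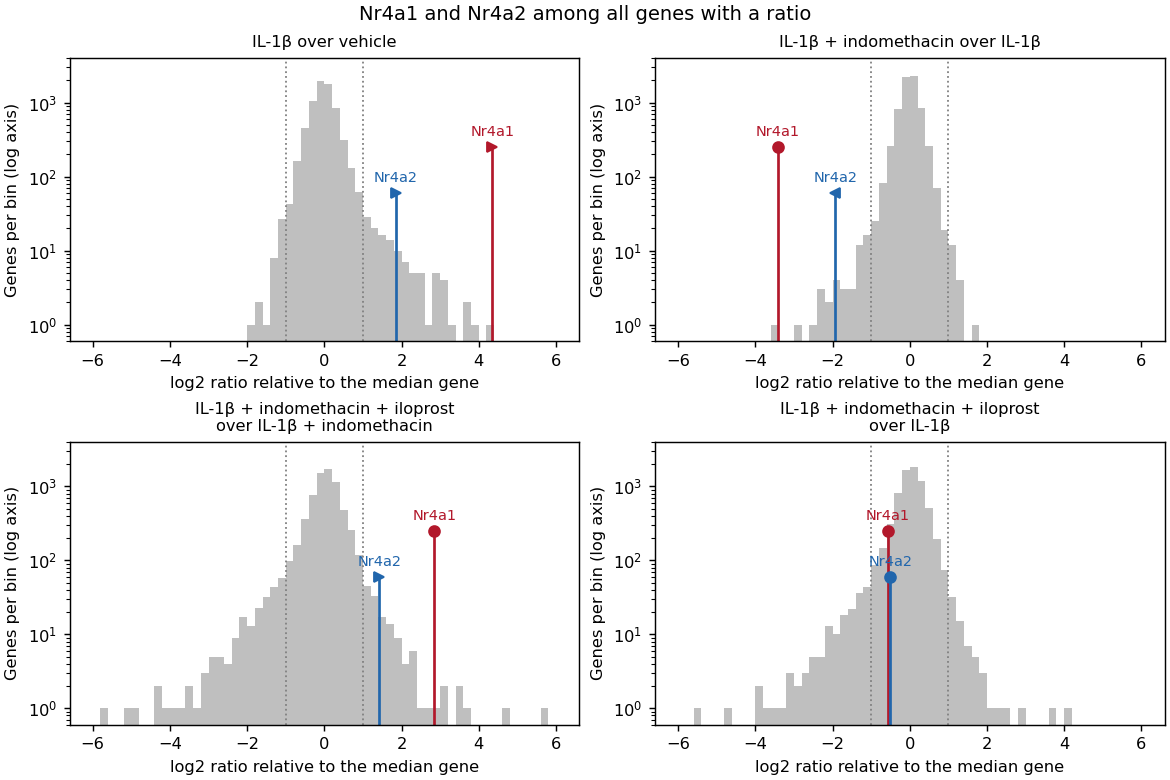
Number of genes (log y axis, bins of 0.2) by log2 ratio relative to the median gene (x axis) in 4 comparisons, with dotted lines at 2-fold. Coloured lines mark Nr4a1 and Nr4a2, with circles for measured ratios and triangles for bounds pointing to where the true value can lie. Nr4a1 lies at the edge of the range with IL-1β (at least 4.35) and with indomethacin (-3.42), and both genes lie inside 2-fold in the last comparison.

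The receptors that link prostanoids to cAMP were measured in the same dishes. Ptgir, the prostacyclin receptor to which iloprost binds, had a signal of 83 with all 3 agents, 211.2 with IL-1β and indomethacin, 167.8 with IL-1β and 158.8 with vehicle. It was lowest in the dish with iloprost, at a log2 ratio of -1.36 against indomethacin. Ptger4, the prostaglandin receptor EP4, had 227.9, 785.7, 379.4 and 346 in the same order, so it was highest in the dish with IL-1β and indomethacin, with log2 ratios of -1.79 for iloprost and 1.20 for indomethacin. Ptger2, the receptor EP2, had 73.7, 84.2, 130.6 and 17.8 and was under the floor with vehicle only, with a log2 ratio of at least 1.57 for IL-1β.

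Of 32 genes listed as components of cAMP and CREB signalling, 24 had a probe set. With IL-1β 3 of 14 with a ratio were at least 2-fold higher and 0 lower, where 1.72% and 0.56% of all genes were. These were Ptger2, Crem (log2 ratio 1.55), which encodes a cAMP-responsive activator and repressor, and Pde4b (1.14), a phosphodiesterase that degrades cAMP. With indomethacin 2 of 15 were lower, Pde4b at -1.38 and Crem at -1.21, against 0.663% of all genes. Ptger4 was the 1 higher, against 0.245% of all genes. With iloprost 1 of 15 was higher, Crem at 2.04, against 1.97% of all genes. Pde4b stood just inside 2-fold at 0.94, with a signal of 217.9 with iloprost and 112.9 without it. Ptger4 and Ptgir were the 2 lower, against 3.19% of all genes. The list medians were 0.01, -0.11 and 0.04, close to the medians of -0.02, 0.00 and 0.04 over all genes with a ratio. Crem was high in the same 2 dishes as Nr4a1 but in another order. Its signal was 375.5 with all 3 agents, 90.6 with IL-1β and indomethacin, 232.9 with IL-1β and 68 with vehicle, so the iloprost dish was the highest.

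Other immediate-early and CREB-driven genes went several ways. Of 29 listed, 28 had a probe set, and with IL-1β the list median was 0.43, against -0.02 over all genes with a ratio. In that comparison 7 of 21 with a ratio were at least 2-fold higher and 0 lower, against 1.72% and 0.56% of all genes. The highest were the cyclooxygenase Ptgs2 at 2.83, the AP-1 subunit Fosl1 at a bound of at least 1.89, the stress-response gene Ier3 at 1.76 and the small GTPase Gem at 1.65. With indomethacin 2 of these 21 were at least 2-fold lower, against 0.663% of all genes, Gem at a bound of at most -2.20 and the bZIP repressor Nfil3 at -1.75, and 0 were higher, where 0.245% of all genes were. With iloprost Nfil3 (1.60) and Gem (at least 1.35) were higher, against 1.97% of all genes, and the stress factor Atf3 (-2.02) and the zinc-finger factor Egr1 (-1.33) were lower, against 3.19% of all genes at least 2-fold lower. Egr1 had a signal of 157.9 with iloprost and 393.3 without it, and Fosl1 one of 148.2 and 138.4, while Nr4a1 had 548.6 and 75.8. The list medians were -0.09 with indomethacin and 0.07 with iloprost, while Nr4a1 stood at -3.42 and 2.85.

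Partners and coregulators of the NR4A proteins were too few for their counts to be set apart from those of all genes. Of 20 listed 14 had a probe set, and 0 of 10 with a ratio was past 2-fold with IL-1β, where 1.72% of all genes were higher and 0.56% lower, or with indomethacin, where 0.245% were higher and 0.663% lower. With iloprost 1 of 10 was lower, against 3.19% of all genes. This was Daxx, a transcriptional corepressor. Daxx had a signal of 133.9 with all 3 agents, 559.3 with IL-1β and indomethacin, 441.6 with IL-1β and 582.4 with vehicle, and its log2 ratio for iloprost was -2.07. The retinoid X receptor genes, whose products pair with Nr4a1 and Nr4a2, did not pass 2-fold. Rxra had signals of 48.2, 38.5, 41.5 and 41.8 in the same order of dishes, all just above the floor. Rxrb had 156.7, 109.6, 89.6 and 129.9, and Rxrg was under the floor throughout, with a highest signal of 12.6.

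The rest of the nuclear receptor family gives the closest frame for the 3 members. Of 46 other nuclear receptor genes 39 had a probe set, 14 were above the floor on at least 1 array and 11 on all arrays. With IL-1β 1 of 13 with a ratio was at least 2-fold higher, Vdr, the vitamin D receptor, at a bound of at least 1.26. The retinoic acid receptor Rarg was the 1 lower, at -1.09, which was -0.86 as deposited. Of all genes 1.72% were higher and 0.56% lower there. With indomethacin 1 of 13 was lower, Vdr at a bound of at most -1.34, against 0.663% of all genes. With iloprost 1 of 14 was higher, Vdr at a bound of at least 1.84, against 1.97% of all genes. Vdr had a signal of 135.8 with all 3 agents, 12.7 with IL-1β and indomethacin, 105.8 with IL-1β and 29.7 with vehicle. It was the only 1 of the 39 that was above the floor in the same 2 dishes as Nr4a2 and below it in the same other 2. The glucocorticoid receptor Nr3c1 was at -0.56 with IL-1β and -0.74 with iloprost, and the oxysterol receptor Nr1h3 at -0.08 and -0.74.

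**Figure D4:**
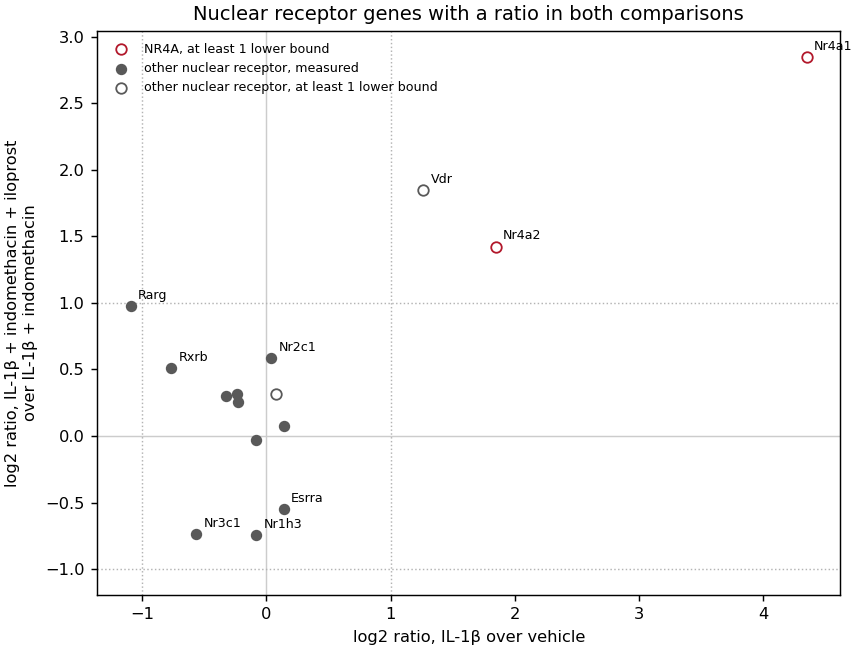
Log2 ratio of IL-1β over vehicle (x axis) and of iloprost with IL-1β and indomethacin over IL-1β and indomethacin (y axis), 2 comparisons that share no array, for each nuclear receptor gene with a ratio in both. Open symbols have at least 1 lower bound, and dotted lines are at 2-fold. Nr4a1 (4.35 and 2.85), Nr4a2 (1.85 and 1.42) and Vdr (1.26 and 1.84) are the points past 2-fold on both axes.

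Genes reported elsewhere to be regulated by NR4A proteins were followed as a list, which rests on work in many cell types. Of 36 listed, 31 had a probe set and 15 had a ratio with IL-1β. There 4 were at least 2-fold higher, Il6 (3.70), an inflammatory cytokine, and the neutrophil chemokines Cxcl5 (2.60), Cxcl1 (2.30) and Cxcl2 (1.23), and 0 were lower, against 1.72% and 0.56% of all genes. With indomethacin 0 of 15 were past 2-fold in either direction, near the background of 0.245% of all genes higher and 0.663% lower, so the count says nothing particular about these genes. The list median there was -0.09. With iloprost 1 of 14 was higher, the cell cycle factor E2f1 at a bound of at least 1.06, against 1.97% of all genes. The 2 lower were the collagenase Mmp13 at -1.77 and the cyclin Ccnd1 at -1.09, against 3.19% of all genes. Mmp13 had a signal of 514.5 with all 3 agents, 1740 with IL-1β and indomethacin, 1420 with IL-1β and 759.4 with vehicle. Its dish with iloprost was the lowest of the 4, while Nr4a1 was high there.

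The genes with the most similar pattern over the 4 arrays were found by the Euclidean distance between log2 signals, each centred on the gene's own mean, among 4688 genes with a signal of at least 113.2 on 1 array. For Nr4a1 the nearest were Procr, the protein C receptor, at a distance of 1.06, Uap1, an enzyme of nucleotide sugar synthesis, at 1.14, and the cytokine Il11 at 1.41. Stc1, a secreted glycoprotein, followed at 1.52 and the enkephalin precursor Penk at 1.55. The secreted kinase Pkdcc and the potassium channel subunit Kcne4 were both at 1.62, and Tnfsf11, which encodes RANKL, was at 1.64. Il11, Stc1 and Tnfsf11 were under the floor with vehicle and with IL-1β and indomethacin. Their distances rest on the floor in those dishes. Procr had a signal of 3097 with all 3 agents, 639.8 with IL-1β and indomethacin, 3265 with IL-1β and 346.6 with vehicle. All 3 agents over IL-1β gave Procr a log2 ratio of 0.06 and Nr4a1 -0.57, so Procr was close to its IL-1β level where Nr4a1 was below it. Its probe set is of a type (suffix _s_at) that can also detect related transcripts.

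For Nr4a2 the distances were shorter, and its low signals were set to the floor. Nfil3 was nearest at 0.29 and Has1, a hyaluronan synthase, next at 0.30. Gem followed at 0.43, the anticoagulant receptor Thbd at 0.49, Medag at 0.57, Tnfsf11 at 0.58, the atypical chemokine receptor Ackr3 at 0.59 and Kcne4 at 0.60. Has1 had signals of 101.4 with all 3 agents, 9.6 with IL-1β and indomethacin, 125.1 with IL-1β and 23.2 with vehicle, so it crossed the floor in the same dishes as Nr4a2. Nfil3 had 173.8, 56.9, 212.3 and 64.4 and was above the floor in every dish. Tnfsf11 and Kcne4 were among the 8 nearest genes of both members.

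**Figure D5:**
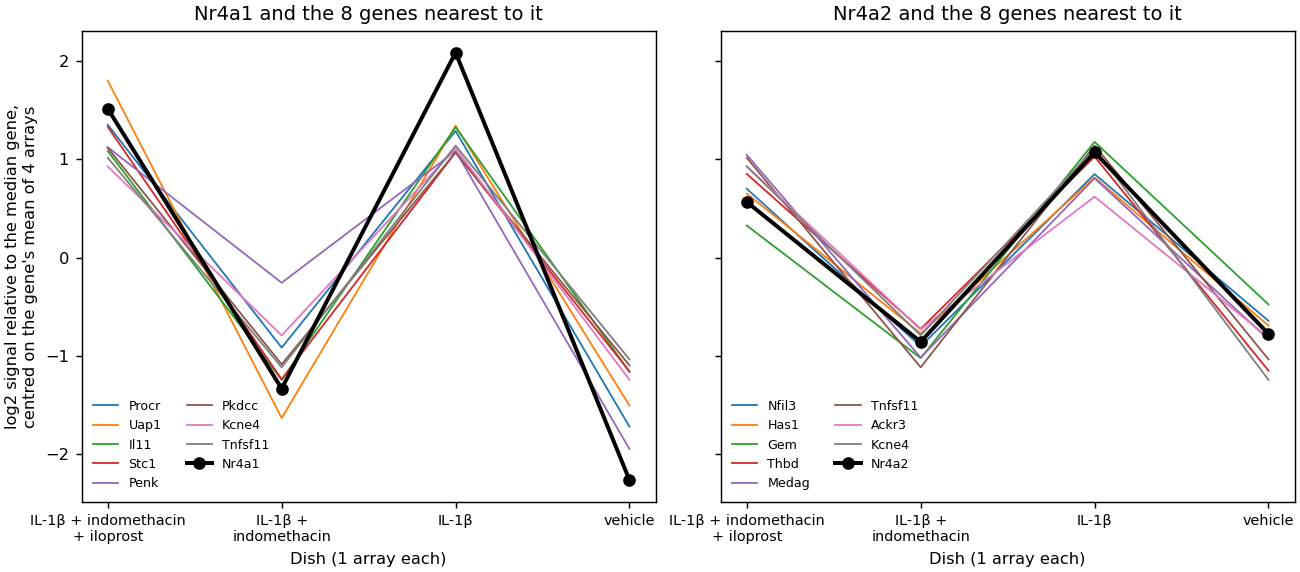
Log2 signal relative to the median gene, centred on each gene's mean of 4 arrays (y axis), in the 4 dishes (x axis) for Nr4a1 (left, black) and Nr4a2 (right, black) and the 8 genes nearest to each (coloured lines). Signals under the floor were set to it. The Nr4a1 line spans more than those of its nearest genes, which lie at distances of 1.06 to 1.64, while the genes nearest to Nr4a2 lie at 0.29 to 0.60.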

How the data were processed

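Total RNA of 4 dishes was labelled and hybridised to Affymetrix GeneChips, per the labels' protocols. The deposited table gives intensity on a linear scale, as 1 number for each probe set on each array. Which software summarised the probes, corrected background or scaled arrays is among the steps not given in the sources used here. Array medians ran from 35.2 to 40.6, so they were not scaled to a common median. The number of arrays limits the precision.

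Gene names come from the array platform's annotation, in which 1606 probe sets are not listed and 691 name several genes. Those and the 64 control probe sets were not used, and the symbols and gene numbers of the members matched the RefSeq table of GRCm38.p6. Log2 of the floored signal was taken, and each gene was represented by the probe set whose mean log2 signal was highest. Where both arrays of a comparison lay at the floor, no ratio was formed. Ratios and counts were computed with Python 3.11.15, numpy 2.4.6 and pandas 2.3.3, and the ratio step was tested on simulated data with known changes. A gene counts as higher or lower at 2-fold.

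Named genes were the 3 members, the 8 nearest genes of each member past 2-fold, at most 4 genes per direction from each of 6 lists, the prostanoid receptors Ptgir, Ptger2 and Ptger4 and the retinoid X receptors. Genes singled out for their pattern beyond that rule were chosen after their values were seen. They were Fosl1 and Pde4b with iloprost, Nr3c1, Nr1h3 and the macrophage markers Fcgr1, Adgre1, Aif1 and Cd14. The members and lists were chosen with earlier results of these data known. The planned comparison of the 3 proteins was not made. A count model or a fit across replicates could not be used with 1 array per group.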

Additional observations from a re-analysis of the deposited data

How the results depend on the processing

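Each comparison rests on 1 dish per treatment, so differences between dishes were not measured, and signals near the floor set how far the dim genes can be read. For Nr4a1 33 of 41 alternative values moved by less than the noise between probe sets within arrays, and for Nr4a2 24 of 35, and 0 changed direction for either. In 8 of 76 a value crossed the 2-fold line. Quantile scaling, scaling to the trimmed mean and averaging a gene's probe sets moved no member by more than that noise. Nr4a1 has 1 probe set, so averaging could shift it only through the median gene. Its values under averaging are among the 33 and say nothing about its stability. Each shift below follows from the construction of its alternative, which is another scaling, floor, zero or fold threshold. All values are log2 ratios unless they count genes.

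On the scale as deposited, IL-1β over vehicle gave Nr4a1 4.58 and Nr4a2 2.08, with 195 genes higher and 11 lower. Indomethacin over IL-1β then had 9 genes higher, and all 3 agents over IL-1β had 44.

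With the floor at the 35th percentile Nr4a2 was at 2.99 for IL-1β over vehicle, -2.68 for indomethacin over IL-1β, 2.14 for iloprost over indomethacin and 2.45 for all 3 agents over vehicle. The genes counted were 185 higher and 103 lower for IL-1β over vehicle, and 43 higher and 103 lower for indomethacin over IL-1β. Iloprost over indomethacin had 250 higher, all 3 agents over IL-1β 139, indomethacin over vehicle 137 and all 3 agents over vehicle 289.

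With the floor at the 65th percentile Nr4a1 was at 3.11 for IL-1β over vehicle, -3.22 for indomethacin over IL-1β and 2.57 for all 3 agents over vehicle, and had no value for indomethacin over vehicle. Nr4a2 was at 0.61, -0.72 and, for all 3 agents over vehicle, 0.14, with 0.25 for iloprost over indomethacin, all bounds inside 2-fold. The genes counted were 77 higher and 20 lower for IL-1β over vehicle, 10 higher and 30 lower for indomethacin over IL-1β, 86 higher for iloprost over indomethacin, 33 higher for all 3 agents over IL-1β and 118 higher for all 3 agents over vehicle.

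With 16 added to every signal and no floor, Nr4a1 was at 3.98 for IL-1β over vehicle, -3.18 for indomethacin over IL-1β, 2.61 for iloprost over indomethacin and 3.41 for all 3 agents over vehicle. Nr4a2 was at 2.18 for IL-1β over vehicle and 1.74 for all 3 agents over vehicle, and 28 genes were higher for indomethacin over IL-1β.

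At 1.5-fold the genes counted were 324 higher and 271 lower for IL-1β over vehicle, 114 and 163 for indomethacin over IL-1β, 547 and 502 for iloprost over indomethacin, and 362 and 417 for all 3 agents over IL-1β. Against vehicle 234 genes were higher with indomethacin and IL-1β and 535 with all 3 agents.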

Other observations

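Calcium signalling is the other classical inducer of NR4A genes, through calcineurin and MEF2. Of 20 listed genes 18 had a probe set, and 0 of 14 with a ratio was past 2-fold with IL-1β or with indomethacin. This is near the share over all genes, of which 1.72% were higher and 0.56% lower with IL-1β, and 0.245% higher and 0.663% lower with indomethacin. With iloprost 2 of 14 were at least 2-fold higher than with IL-1β and indomethacin, against 1.97% of all genes, the calcineurin-regulated factors Nfatc4 at 1.21 and Nfatc1 at 1.08, and 0 were lower. Nfatc4 had a signal of 239 with iloprost and 102.8 without it, and Nfatc1 one of 166.1 and 78.3. Against vehicle the dish with all 3 agents had 1 of 14 higher, the histone deacetylase Hdac5 at 1.07, against 2.72% of all genes. Mef2c was the 1 lower, at a bound of at most -1.04, which was -0.95 as deposited. Of 6985 genes 234 were lower there.

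Rarg was the nuclear receptor with the largest difference between all 3 agents and IL-1β alone, at a log2 ratio of 1.20. Its signal was 122 with all 3 agents, 61.8 with IL-1β and indomethacin, 58.5 with IL-1β and 106.2 with vehicle, so it was low both with IL-1β alone and with indomethacin added. Rxrb was also lowest with IL-1β alone, at 0.95 for all 3 agents over IL-1β and -0.76 for IL-1β over vehicle.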
